A study of Mus musculus with 32 samples.

Results

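Fatty acid oxidation and its regulator PPAR alpha were followed in whole mouse kidney after cisplatin, through 33 genes. These were listed by their function, with earlier results of these data known. They were found on the arrays through the transcript accession of each probe. All 33 had a probe, and all 33 passed the filter on dim probes, out of 32451 genes and unnamed transcripts on the array, of which 23743 were tested. For each gene the brightest probe was used, and for Decr1 both of its probes are given. Kidney RNA came from 32 male mice aged 12 to 16 weeks, 1 animal per array, in 8 groups of 4. Wild type mice were C57BL/6, and the mutants, called miR-155-/-, were of the strain B6.Cg-Mir155tm1.1Rsky/J, in which the microRNA gene Mir155 is deleted in the germline. Cisplatin was given as 1 intraperitoneal injection at 20 mg/kg, and kidneys were taken at 24, 48 or 72 h. The control of each genotype was a saline-injected group, labelled 0 h, so that no saline group was matched to the later times. The mutants descended from a Jackson Laboratory stock and the wild type mice came from Charles River Laboratories, so that genotype and breeding source cannot be told apart. No probe matched Mir155, so the deletion itself was not checked here.

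Proximal tubule cells take most of their ATP from fatty acids. Long chains enter the mitochondrion as carnitine esters and are shortened in a cycle of dehydrogenation, hydration, a further dehydrogenation and thiolysis, and the electrons of the opening step pass through the electron transfer flavoprotein to the respiratory chain. Peroxisomes run a similar cycle on very long, branched and dicarboxylic chains, and microsomal omega-hydroxylases of the Cyp4a family supply dicarboxylic chains to it. PPAR alpha is a nuclear receptor that binds fatty acids and, together with RXR, raises the transcription of many genes of these routes, with Ppargc1a as a coactivator. Cisplatin is a platinum drug that damages DNA and injures the proximal tubule cells that take it up.

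Levels are given as log2 of the array's processed intensity after subtraction of that array's 75th percentile, so that 0 is the 75th percentile of all probes and 1 unit is a doubling. Each probe has its own brightness, and levels of different genes are therefore not compared. Differences are log2 differences ± SE from the limma fit over all 32 arrays, and a gene is said to have risen or fallen where its Benjamini-Hochberg adjusted p over all genes tested was under 0.05. On the arrays 68.8% to 82.2% of probes were well above background and 0 spots were saturated. Flagged outlier spots numbered 976 on miR-155-/- saline replicate 3 and at most 286 on any other array. Saline arrays lay apart from treated arrays on the first principal component over all genes (40.4% of the variance). Of the miR-155-/- arrays, replicate 3 at 48 h lay far from its group and replicate 3 at 24 h at the edge of its own. Results that rest on them are also given without them. The arrays sat on 8 slides, none of which held both wild type saline and wild type 72 h arrays. They were scanned on 2 days, and the main fit held no term for the day. Wild type saline replicate 1, 24 h replicates 2, 3 and 4 and 72 h replicates 1, 2 and 3 were scanned on day 1. The other arrays of these wild type groups were scanned on day 2. Each genotype was compared with its own saline group at 3 times and between 72 and 24 h. The genotypes were compared at each of the 4 times, and their responses to cisplatin were compared at 24, 48 and 72 h, which made 15 comparisons. Where a pair of values stands without naming the genotypes, wild type comes before miR-155-/-. Whole kidney RNA mixes cell types, and in such samples fewer cells of a type and less RNA per cell cannot be told apart.

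The members fell more often than they rose at 24 h and rose more often than they fell at 72 h, in both genotypes. As they were chosen with earlier results of these data known, their shares beside those of all genes are a description. In wild type kidney at 24 h, 3 of 33 members rose (9.09%, against 21.0% of all genes tested) and 12 fell (36.4%, against 17.6%). At 48 h 5 rose (15.2%, against 12.2% of all genes; 3 without saline replicate 1 or 48 h replicates 3 or 4) and 9 fell (27.3%, against 11.6%). At 72 h 16 rose (48.5%, against 12.5% of all genes) and 3 fell (9.09%, against 12.8%). The median difference over the members went from -0.19 at 24 h to 0.04 at 48 h and 0.34 at 72 h, beside medians of 0.07, 0.00 and 0.03 over all genes tested. In miR-155-/- kidney 4 members rose and 11 fell at 24 h (26.6% and 22.5% of all genes). There 4 rose and 13 fell at 48 h (22.7% and 21.1% of all genes; 2 rose without saline replicate 3). At 72 h 12 rose and 6 fell (17.7% and 17.5% of all genes). Between the genotypes 10 of the members that fell at 24 h were shared, as were all 3 wild type risers. At 72 h all 12 members that rose in miR-155-/- kidney had also risen in wild type, and 0 members were called in opposite directions in the genotypes at any time.

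**Figure D1:**
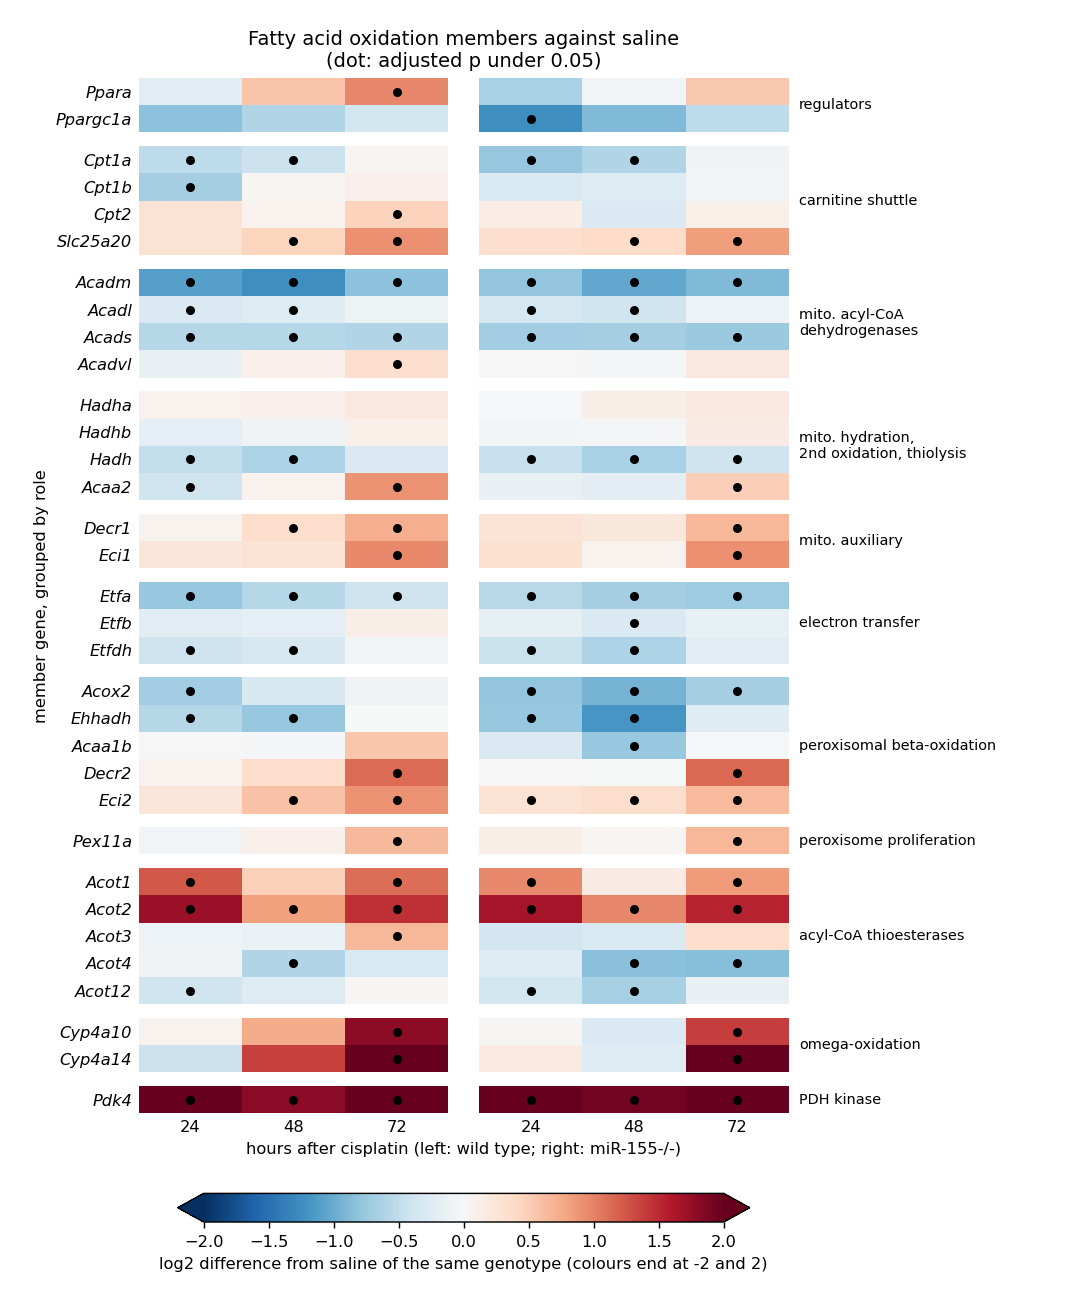
Log2 difference from saline of the same genotype for the 33 members, in rows grouped by role, at 24, 48 and 72 h (columns, wild type at the left and miR-155-/- at the right). Red is higher and blue is lower than saline, colours end at -2 and 2, and a dot marks an adjusted p under 0.05. Pdk4, Acot2 and Acot1 are red at 24 h, and Acadm, Acads and Etfa stay blue. The Cyp4a genes, Decr2, Eci1 and Eci2 are red at 72 h, and Eci2 already has a dot at 48 h in both genotypes.

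Time courses differed between members. Pdk4, Acot1 and Acot2 rose by 24 h and were still higher at 72 h. A set of 12 members was uncalled at 24 h and had risen at 72 h in wild type: Acadvl, Acot3, Cpt2, Cyp4a10, Cyp4a14, Decr1, Decr2, Eci1, Eci2, Pex11a, Ppara and Slc25a20. Acadm, Acads and Etfa fell at 24, 48 and 72 h in both genotypes. Another 8 fell at 24 h and were uncalled at 72 h in wild type (Acadl, Acot12, Acox2, Cpt1a, Cpt1b, Ehhadh, Etfdh and Hadh), and Acaa2 fell at 24 h and rose at 72 h. Acaa1b, Acot4, Etfb, Hadha, Hadhb and Ppargc1a were called at neither of these times in wild type.

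Of the regulators, Ppara was higher at 72 h than at 24 h in both genotypes, while Ppargc1a was called only at 24 h in miR-155-/- kidney, where it fell. Ppara levels in wild type kidney were 1.64, 1.87, 2.04 and 2.38 after saline, 1.39, 1.64, 1.72 and 2.26 at 24 h, 2.33, 2.38, 2.67 and 2.82 at 48 h, and 2.77, 2.82, 2.99 and 3.26 at 72 h. All 4 arrays at 72 h lay above all 4 saline arrays, and the 24 h and saline groups overlapped. Ppara in miR-155-/- kidney read 1.84, 2.05, 2.18 and 2.41 after saline, 0.21, 1.41, 2.02 and 2.24 at 24 h, 0.81, 2.29, 2.52 and 2.58 at 48 h, and 2.23, 2.51, 2.91 and 3.0 at 72 h. The lowest values at 24 and 48 h both came from the arrays that stood apart, and the 72 h arrays overlapped the saline group.

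Against saline Ppara rose at 72 h in wild type, by 0.98 ± 0.34 (adjusted p = 0.032), and its difference in miR-155-/- kidney was 0.54 ± 0.34 (adjusted p = 0.23). The wild type call was lost without any of 5 arrays (saline replicates 1, 2 and 3 and 72 h replicates 1 and 3; differences of 0.86 to 1.0, adjusted p of 0.056 to 0.097) and with the slide as a block (0.61, adjusted p = 0.17). From 24 to 72 h Ppara rose by 1.21 ± 0.34 (adjusted p = 0.0077) in wild type and by 1.19 ± 0.34 (adjusted p = 0.0074) in miR-155-/-, or by 0.77 (adjusted p = 0.053) without miR-155-/- 24 h replicate 3. Both other probes of Ppara had the same sign in the wild type comparison of 72 h with saline.

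Ppargc1a, the coactivator that also drives mitochondrial biogenesis, read 0.89, 1.38, 1.49 and 1.91 after saline, 0.08, 0.30, 0.94 and 1.05 at 24 h, 0.15, 0.60, 1.02 and 1.49 at 48 h, and 0.69, 1.06, 1.13 and 1.23 at 72 h in wild type. Its values in miR-155-/- kidney were 0.79, 1.37, 1.47 and 1.86 after saline, -1.54, -0.26, 1.13 and 1.15 at 24 h, -0.45, 0.65, 0.76 and 1.0 at 48 h, and 0.29, 0.87, 0.89 and 1.31 at 72 h. Every treated group overlapped the saline group of its genotype, and the miR-155-/- arrays at 24 h were spread widely. The differences from saline in wild type were -0.82 ± 0.42, -0.60 ± 0.42 and -0.39 ± 0.42 at 24, 48 and 72 h (adjusted p of 0.12, 0.33 and 0.54). It fell in miR-155-/- kidney at 24 h, with a difference of -1.25 ± 0.42 (adjusted p = 0.015). Without replicate 3 of that group the difference was -0.70 (adjusted p = 0.12), and without saline replicate 2 it was -1.09 (adjusted p = 0.053).

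The 4 genes of the carnitine shuttle split by step. Cpt1a, the outer-membrane enzyme that commits long chains to oxidation, fell at 24 h, with a difference of -0.53 ± 0.13 (adjusted p = 0.002) in wild type and -0.77 ± 0.13 (adjusted p = 2.4e-05) in miR-155-/- kidney, and was within -0.08 to 0.05 of saline at 72 h. Slc25a20, the translocase that carries the esters through the inner membrane, rose at 72 h by 0.91 ± 0.14 (adjusted p = 2.2e-05) and 0.83 ± 0.14 (adjusted p = 4.4e-05). Cpt2, which returns the chain to coenzyme A on the inner side, rose in wild type at 72 h (0.46 ± 0.13, adjusted p = 0.0093; 0.37, adjusted p = 0.054, without saline replicate 1, and 0.34, adjusted p = 0.098, as the mean over its probes) and was at 0.11 ± 0.13 (adjusted p = 0.55) in miR-155-/-.

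Cpt1b, the muscle-type form of the outer enzyme, read -0.61, -0.49, -0.33 and 0.05 after saline, -1.10, -1.05, -1.03 and -0.93 at 24 h, -0.47, -0.39, -0.23 and -0.11 at 48 h, and -0.47, -0.32, -0.10 and -0.08 at 72 h in wild type kidney. The 24 h arrays lay below all other wild type arrays. Cpt1b in miR-155-/- kidney was at -0.98, -0.54, -0.30 and -0.15 after saline, -1.07, -0.90, -0.79 and -0.49 at 24 h, -1.19, -1.17, -0.73 and 0.00 at 48 h, and -1.03, -0.49, -0.41 and -0.32 at 72 h. There every treated group overlapped saline. It fell in wild type at 24 h, with a difference of -0.68 ± 0.21 (adjusted p = 0.011), or -0.55 with an adjusted p of 0.054 without saline replicate 1, and the miR-155-/- difference was -0.32 ± 0.21 (adjusted p = 0.21).

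Among the acyl-CoA dehydrogenases, which open each mitochondrial cycle on chains of a given length, the medium-chain and short-chain enzymes were lower throughout. Acadm (medium chain) read 6.78, 6.89, 6.93 and 6.95 after saline, 5.68, 5.69, 5.87 and 5.91 at 24 h, 5.24, 5.42, 5.91 and 6.02 at 48 h, and 5.95, 6.02, 6.11 and 6.18 at 72 h in wild type. The miR-155-/- values of Acadm were 6.16, 6.56, 6.68 and 6.96 after saline, 5.66, 5.67, 5.67 and 6.24 at 24 h, 5.41, 5.42, 5.61 and 5.78 at 48 h, and 5.54, 5.61, 5.8 and 5.89 at 72 h. No wild type treated array reached the lowest saline array, and in miR-155-/- 1 array at 24 h, replicate 3, reached it. The mean went from 6.89 ± 0.08 (SD, n = 4) to 5.79 ± 0.12 (SD, n = 4) at 24 h in wild type, a fall of 2.15-fold. The differences were -1.10 ± 0.16, -1.24 ± 0.16 and -0.83 ± 0.16 in wild type (adjusted p of 2.5e-06, 8.2e-07 and 0.0002). In the mutants they were -0.78 ± 0.16, -1.03 ± 0.16 and -0.88 ± 0.16 (adjusted p of 0.00017, 6.9e-06 and 5.7e-05).

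Acads (short chain) had wild type values of 2.30, 2.35, 2.38 and 2.43 after saline, 1.63, 1.72, 1.81 and 1.99 at 24 h, 1.40, 1.62, 1.80 and 2.35 at 48 h, and 1.62, 1.77, 1.78 and 1.87 at 72 h. Its miR-155-/- values were 2.06, 2.34, 2.49 and 2.53 after saline, 1.51, 1.67, 1.70 and 1.77 at 24 h, 1.56, 1.64, 1.67 and 1.83 at 48 h, and 1.31, 1.43, 1.85 and 1.86 at 72 h. The treated groups did not overlap saline apart from 1 wild type array at 48 h. The differences were -0.58 ± 0.15, -0.57 ± 0.15 and -0.60 ± 0.15 in wild type (adjusted p of 0.0026, 0.0046 and 0.0027). Those of the mutants were -0.69 ± 0.15, -0.68 ± 0.15 and -0.74 ± 0.15 (adjusted p of 0.00031, 0.00049 and 0.00021). Acadl (long chain) fell at 24 h, with a difference of -0.30 ± 0.09 (adjusted p = 0.0095) and -0.35 ± 0.09 (adjusted p = 0.0024) in wild type and miR-155-/-, and was at -0.10 ± 0.09 and -0.12 ± 0.09 at 72 h. Acadvl (very long chain) rose in wild type at 72 h by 0.34 ± 0.11 (adjusted p = 0.02), a call lost without saline replicate 2 (0.28, adjusted p = 0.071) or 72 h replicate 3 (0.26, adjusted p = 0.10), and was at 0.21 ± 0.11 (adjusted p = 0.13) in miR-155-/-.

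Of the later mitochondrial steps, Hadha and Hadhb, the subunits of the trifunctional protein that handles long chains, were not called against saline in any group, with differences between -0.19 and 0.21. Hadh, the hydroxyacyl-CoA dehydrogenase of shorter chains, fell at 24 h (-0.49 ± 0.13, adjusted p = 0.0039 and -0.46 ± 0.13, adjusted p = 0.0049) and at 48 h (-0.64 ± 0.13, adjusted p = 0.00063 and -0.65 ± 0.13, adjusted p = 0.00026) in wild type and miR-155-/- kidney. Acaa2, the thiolase that releases acetyl-CoA, was the member that fell and then rose in wild type, from -0.39 ± 0.15 (adjusted p = 0.045) at 24 h to 0.89 ± 0.15 (adjusted p = 6.6e-05) at 72 h. The 24 h call of Acaa2 was lost without any of 6 arrays (saline replicates 2, 3 and 4 and 24 h replicates 1, 2 and 4; -0.42 to -0.26, adjusted p of 0.063 to 0.20). Acaa2 rose in miR-155-/- kidney at 72 h by 0.50 ± 0.15 (adjusted p = 0.013), or by 0.43 (adjusted p = 0.052) without replicate 3 of that group.

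Decr1, the mitochondrial dienoyl-CoA reductase needed for unsaturated chains, had 2 probes for the same transcript that disagreed. The brighter probe read 5.13, 5.19, 5.21 and 5.31 after saline, 5.10, 5.26, 5.36 and 5.39 at 24 h, 5.38, 5.49, 5.67 and 5.78 at 48 h, and 5.64, 5.96, 5.99 and 6.13 at 72 h in wild type kidney. The same probe of Decr1 read 4.62, 5.16, 5.22 and 5.25 after saline, 5.11, 5.29, 5.29 and 5.66 at 24 h, 5.19, 5.25, 5.31 and 5.42 at 48 h, and 5.55, 5.68, 5.8 and 5.86 at 72 h in miR-155-/- kidney. On the dimmer probe Decr1 read -0.67, -0.45, -0.38 and -0.35 after saline, -1.52, -1.44, -1.18 and -1.04 at 24 h, -1.11, -1.04, -1.01 and -0.98 at 48 h, and -0.92, -0.67, -0.37 and -0.31 at 72 h in wild type. In wild type the brighter probe was thus level at 24 h and above all saline arrays at 48 and 72 h, while the dimmer one was below all saline arrays at 24 and 48 h and overlapped them at 72 h. The dimmer probe of Decr1 in miR-155-/- kidney was at -0.67, -0.60, -0.52 and -0.17 after saline, -1.37, -1.24, -1.12 and -0.92 at 24 h, -1.82, -1.33, -1.26 and -1.25 at 48 h, and -0.93, -0.82, -0.72 and -0.57 at 72 h.

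By the brighter probe Decr1 rose at 48 h (0.37 ± 0.13, adjusted p = 0.032) and 72 h (0.72 ± 0.13, adjusted p = 8.8e-05) in wild type and at 72 h in miR-155-/- kidney (0.66 ± 0.13, adjusted p = 0.00015). By the dimmer probe Decr1 fell at 24 h, with a difference of -0.83 ± 0.15 (adjusted p = 5.2e-05) in wild type and -0.67 ± 0.15 (adjusted p = 0.00045) in miR-155-/-. It also fell at 48 h, with a difference of -0.58 ± 0.15 (adjusted p = 0.0043) and -0.93 ± 0.15 (adjusted p = 1.3e-05), and was at -0.11 ± 0.15 (adjusted p = 0.64) and -0.27 ± 0.15 (adjusted p = 0.16) at 72 h. From 24 to 72 h both probes rose, by 0.65 ± 0.13 (adjusted p = 0.00028) and 0.73 ± 0.15 (adjusted p = 0.00043) in wild type. The wild type 48 h call of the brighter probe was lost without any of 5 arrays (saline replicates 1, 2 and 4 and 48 h replicates 3 and 4; 0.31 to 0.37, adjusted p of 0.061 to 0.11), and the mean over both probes turned its sign, to -0.10. At 72 h that mean was 0.31 (adjusted p = 0.046) in wild type and 0.20 (adjusted p = 0.19) in miR-155-/- kidney, where the call was lost. Of the other 8 members with a further probe above background on at least 31 arrays, all called differences from saline had the same sign on it. The sequence of either Decr1 probe was not used here, so which part of the transcript each reads was not tested. Eci1, the mitochondrial isomerase that moves double bonds into place, has 1 probe and rose at 72 h by 0.96 ± 0.14 (adjusted p = 8.7e-06) and 0.92 ± 0.14 (adjusted p = 1.1e-05).

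**Figure D2:**
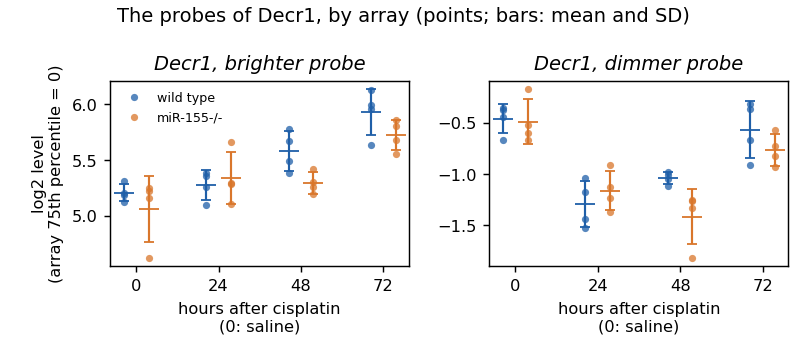
Log2 level (array 75th percentile at 0) of the brighter (left) and the dimmer (right) probe of Decr1 by array, against hours after cisplatin (0 is saline), with wild type in blue and miR-155-/- in orange; bars show the mean and SD of 4 arrays. Relative to saline the brighter probe lies above the dimmer one at 24, 48 and 72 h, and both are higher at 72 h than at 24 h.

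Of the electron transfer genes, Etfa, the alpha subunit of the flavoprotein, was lower at every time on the probe used. It read 4.88, 5.08, 5.12 and 5.21 after saline, 4.26, 4.29 and 4.40 at 24 h, 4.20, 4.33, 4.73 and 4.78 at 48 h, and 4.45, 4.65, 4.71 and 4.82 at 72 h in wild type kidney. A flagged spot was left out at 24 h. Etfa in miR-155-/- kidney was at 4.89, 4.97, 5.06 and 5.27 after saline, 4.46, 4.49, 4.51 and 4.52 at 24 h, 4.29, 4.29, 4.30 and 4.59 at 48 h, and 4.15, 4.26, 4.37 and 4.52 at 72 h. No treated array of either genotype reached the lowest saline array of its genotype. The differences of Etfa were -0.76 ± 0.12, -0.56 ± 0.12 and -0.42 ± 0.12 in wild type (adjusted p of 2.5e-05, 0.00062 and 0.0083). Those of the mutants were -0.55 ± 0.12, -0.68 ± 0.12 and -0.72 ± 0.12 (adjusted p of 0.0003, 3.8e-05 and 1.7e-05). The second probe of Etfa read differences of -0.62, -0.26 and -0.07 in wild type and -0.50, -0.69 and -0.86 in the mutants. As the mean over both probes the wild type calls of Etfa were lost at 48 h (-0.41, adjusted p = 0.23) and 72 h (-0.24, adjusted p = 0.51), and that of the mutants at 24 h (-0.53, adjusted p = 0.071). The wild type call at 72 h was also lost with normexp (-0.41, adjusted p = 0.10) and with median scaling (-0.37, adjusted p = 0.087). Etfdh, which hands the electrons to ubiquinone, fell at 24 h, with a difference of -0.42 ± 0.10 (adjusted p = 0.0024) and -0.45 ± 0.10 (adjusted p = 0.00092) and was at -0.05 ± 0.10 and -0.22 ± 0.10 at 72 h. Etfb, the beta subunit, was called against saline in miR-155-/- kidney at 48 h (-0.30 ± 0.12, adjusted p = 0.04), a call lost without any of 6 arrays (saline replicates 1, 2 and 4 and 48 h replicates 1, 3 and 4; -0.32 to -0.20, adjusted p of 0.054 to 0.19).

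**Figure D3:**
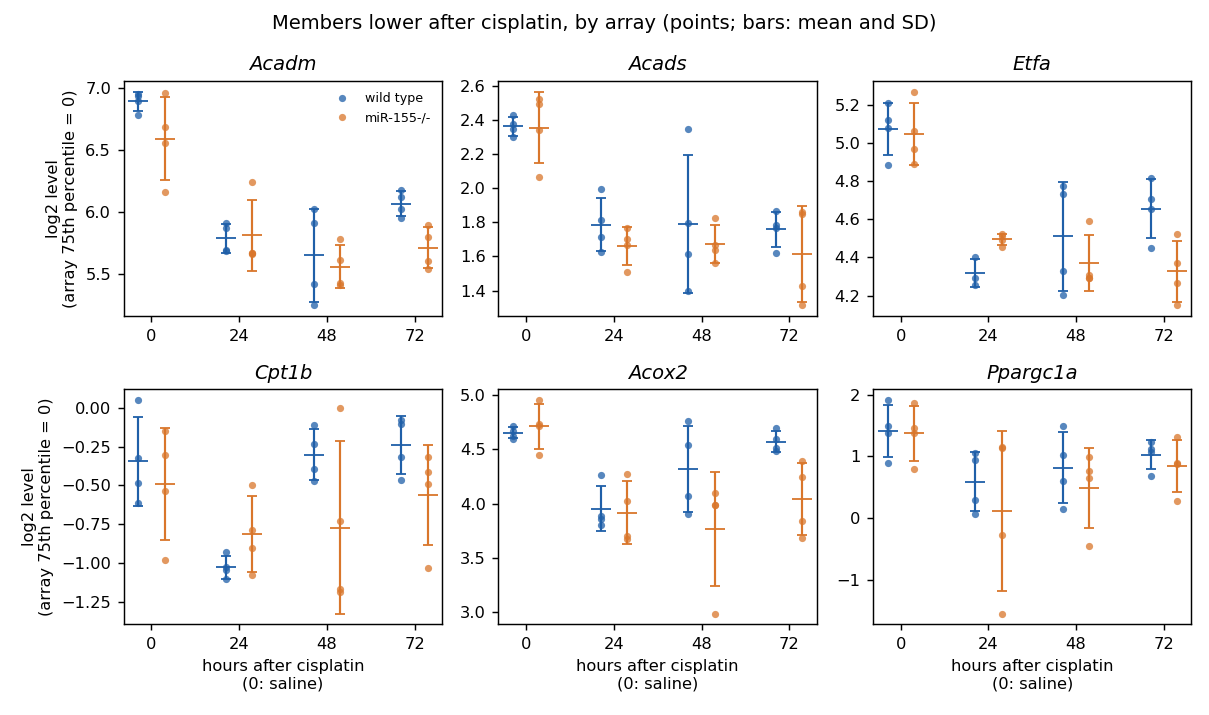
Log2 level (array 75th percentile at 0) of Acadm, Acads, Etfa, Cpt1b, Acox2 and Ppargc1a by array, against hours after cisplatin (0 is saline), with wild type in blue and miR-155-/- in orange; bars show the mean and SD. Acadm, Acads and Etfa stay below saline to 72 h, whereas Acox2 in wild type goes from 3.95 at 24 h to 4.57 at 72 h, beside 4.65 after saline.

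The 5 peroxisomal genes are given with the enzymes of the cycle first and the auxiliary enzymes after them. Acox2, the oxidase for branched chains and bile acid precursors, read 4.60, 4.62, 4.67 and 4.72 after saline, 3.81, 3.86, 3.88 and 4.26 at 24 h, 3.91, 4.07, 4.54 and 4.76 at 48 h, and 4.49, 4.51, 4.60 and 4.70 at 72 h in wild type. The Acox2 values in miR-155-/- kidney were 4.45, 4.71, 4.74 and 4.96 after saline, 3.67, 3.70, 4.03 and 4.27 at 24 h, 2.99, 3.99, 3.99 and 4.10 at 48 h, and 3.68, 3.84, 4.25 and 4.39 at 72 h. The 24 h arrays lay below saline in both genotypes, and by 72 h wild type but not miR-155-/- arrays overlapped saline. Acox2 fell at 24 h, with a difference of -0.70 ± 0.20 (adjusted p = 0.0071) and -0.80 ± 0.20 (adjusted p = 0.0019). At 72 h it was at -0.08 ± 0.20 (adjusted p = 0.82) in wild type and still lower in miR-155-/- (-0.67 ± 0.20, adjusted p = 0.01; -0.55, adjusted p = 0.052, without replicate 1 of that group). The genotypes' 72 h responses of Acox2 differed by -0.59 ± 0.29 (adjusted p = 0.65).

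Ehhadh, the bifunctional enzyme of the peroxisomal cycle, fell at 48 h, with a difference of -0.78 ± 0.20 (adjusted p = 0.004) and -1.18 ± 0.20 (adjusted p = 2.4e-05) and was at -0.01 ± 0.20 and -0.25 ± 0.20 at 72 h. Acaa1b, a peroxisomal thiolase, fell in miR-155-/- kidney at 48 h (-0.76 ± 0.22, adjusted p = 0.0059; -0.51, adjusted p = 0.052, without replicate 3) and was at 0.56 ± 0.22 (adjusted p = 0.059) in wild type at 72 h. Though not called there, its wild type levels at 72 h (4.085 to 4.492) lay above those after saline (3.553 to 3.917). Decr2, the peroxisomal dienoyl-CoA reductase, rose at 72 h by 1.14 ± 0.21 (adjusted p = 0.00013) in wild type and 1.14 ± 0.21 (adjusted p = 7.8e-05) in miR-155-/-, from differences of 0.09 ± 0.21 and 0.01 ± 0.21 at 24 h. Eci2, the peroxisomal isomerase, rose at 72 h by 0.91 ± 0.11 (adjusted p = 3.7e-07) and 0.64 ± 0.11 (adjusted p = 3.6e-05). It had also risen at 48 h in both genotypes, and at 24 h in miR-155-/- kidney. In wild type its mean level was 4.48 after saline and 5.07 at 48 h. The miR-155-/- calls were lost without 1 array at 48 h (0.276, adjusted p = 0.053) and without either of 2 arrays at 24 h (0.215 to 0.231, adjusted p of 0.0975 to 0.117). The reductase and the isomerase of both compartments, Decr1 (brighter probe), Eci1, Decr2 and Eci2, thus all rose at 72 h in both genotypes. This holds for the brighter Decr1 probe and not for the mean over both, and the set was put together after the values were seen. Pex11a, a membrane protein that promotes peroxisome division, rose at 72 h by 0.66 ± 0.18 (adjusted p = 0.0072) and 0.67 ± 0.18 (adjusted p = 0.0041).

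Acyl-CoA thioesterases release free fatty acids from coenzyme A. Acot2, Acot1, Acot4 and Acot3 lie next to each other on 1 stretch of chromosome 12, in this order and on the same strand, and were not called at the same times. Differences between these neighbours were not tested. The 250 bases before the start of each gene (RefSeq, GRCm38.p6, plus strand) are shown because the calls of these neighbours differed: Acot2 at chr12:83987611-83987860, Acot1 at chr12:84009252-84009501, Acot4 at chr12:84038129-84038378 and Acot3 at chr12:84051894-84052143. Capitals mark a match, with at most 2 mismatches on either strand, to a direct repeat of AGGTCA with 1 base between the copies, the kind of element that PPAR alpha binds with RXR.
Acot2: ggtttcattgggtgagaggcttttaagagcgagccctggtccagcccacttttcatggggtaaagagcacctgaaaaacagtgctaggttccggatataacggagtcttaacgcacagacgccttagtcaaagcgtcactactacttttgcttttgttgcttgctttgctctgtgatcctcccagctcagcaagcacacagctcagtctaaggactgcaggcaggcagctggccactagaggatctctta
Acot1: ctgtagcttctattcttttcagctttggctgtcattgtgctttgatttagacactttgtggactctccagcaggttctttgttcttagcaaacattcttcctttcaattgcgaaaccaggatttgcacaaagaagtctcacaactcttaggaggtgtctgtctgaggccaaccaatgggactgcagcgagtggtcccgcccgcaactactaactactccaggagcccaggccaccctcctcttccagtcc
Acot4: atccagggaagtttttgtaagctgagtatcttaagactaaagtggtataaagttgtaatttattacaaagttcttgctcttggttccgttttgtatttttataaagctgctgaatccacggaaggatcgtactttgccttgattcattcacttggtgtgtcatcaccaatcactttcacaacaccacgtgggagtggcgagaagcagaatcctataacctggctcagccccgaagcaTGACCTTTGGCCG
Acot3: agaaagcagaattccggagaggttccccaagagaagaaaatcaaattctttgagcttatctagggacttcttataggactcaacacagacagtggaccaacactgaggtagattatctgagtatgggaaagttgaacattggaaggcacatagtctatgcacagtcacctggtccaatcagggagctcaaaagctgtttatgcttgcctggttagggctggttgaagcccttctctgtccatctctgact

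Acot2, the mitochondrial form, rose at every time in both genotypes. Its wild type levels were -1.65, -1.55, -1.25 and -1.23 after saline, -0.02, 0.15, 0.43 and 0.64 at 24 h, -0.76, -0.65, -0.54 and -0.43 at 48 h, and -0.36, -0.06, 0.27 and 0.30 at 72 h. On miR-155-/- arrays Acot2 read -1.82, -1.49, -1.32 and -1.30 after saline, -0.26, 0.08, 0.09 and 0.83 at 24 h, -0.94, -0.76, -0.64 and 0.29 at 48 h, and -0.13, -0.01, 0.18 and 0.20 at 72 h. Every treated array lay above every saline array of its genotype, and the 48 h groups were lower than those at 24 and 72 h on average. The differences were 1.72 ± 0.22, 0.82 ± 0.22 and 1.46 ± 0.22 in wild type (adjusted p of 5.6e-07, 0.0069 and 1.1e-05). Those of the mutants were 1.67 ± 0.22, 0.97 ± 0.22 and 1.54 ± 0.22 (adjusted p of 8.4e-07, 0.00084 and 2.9e-06).

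Acot1, the cytosolic form, had wild type levels of 3.46, 3.96, 4.35 and 4.68 after saline, 5.21, 5.34, 5.39 and 5.47 at 24 h, 4.26, 4.40, 4.81 and 4.89 at 48 h, and 4.93, 5.21, 5.40 and 5.42 at 72 h. Its miR-155-/- levels were 3.61, 4.30, 4.42 and 4.45 after saline, 4.37, 5.25, 5.39 and 5.57 at 24 h, 4.21, 4.34, 4.35 and 4.51 at 48 h, and 4.84, 5.02, 5.08 and 5.23 at 72 h. In wild type the 24 and 72 h arrays lay above all saline arrays and the 48 h arrays overlapped them. Acot1 rose at 24 h (1.24 ± 0.23, adjusted p = 8.5e-05 and 0.95 ± 0.23, adjusted p = 0.001) and 72 h (1.12 ± 0.23, adjusted p = 0.00041 and 0.85 ± 0.23, adjusted p = 0.0042), with 48 h differences of 0.47 ± 0.23 (adjusted p = 0.13) and 0.16 ± 0.23 (adjusted p = 0.59) in wild type and miR-155-/- kidney. Acot1 and Acot2 are close paralogs, and cross-hybridisation between their probes was not tested.

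In neither genotype were the other thioesterases called higher at 24 h. Acot4 fell at 48 h (-0.60 ± 0.13, adjusted p = 0.0011 and -0.84 ± 0.13, adjusted p = 1.2e-05) and was at -0.33 ± 0.13 (adjusted p = 0.071) in wild type and -0.85 ± 0.13 (adjusted p = 1e-05) in miR-155-/- at 72 h. Acot3 rose in wild type at 72 h (0.66 ± 0.24, adjusted p = 0.041), a call lost without any of 5 arrays (saline replicates 1 and 2 and 72 h replicates 2, 3 and 4; 0.50 to 0.72, adjusted p of 0.051 to 0.16), and was at 0.36 ± 0.24 (adjusted p = 0.26) in miR-155-/-. Acot12, a cytosolic acetyl-CoA hydrolase coded on chromosome 13, fell at 24 h in both genotypes (-0.40 ± 0.14, adjusted p = 0.025 and -0.38 ± 0.14, adjusted p = 0.025), and both calls were open to single arrays. The wild type call was lost without saline replicate 4 or 24 h replicates 2 or 4 (-0.40 to -0.32, adjusted p of 0.051 to 0.097), and the miR-155-/- call without saline replicates 2 or 4 or 24 h replicates 1 or 2 (-0.37 to -0.32, adjusted p of 0.052 to 0.081). Acot12 also fell at 48 h in miR-155-/- kidney, from a mean level of 2.585 after saline to 1.924. That call was kept under every alternative, with differences of -0.731 to -0.582.

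The repeat was looked for in the 250 bases before the start of the 28 members that the RefSeq promoter table holds. Cyp4a10, Cyp4a14, Decr1, Acaa2 and Cpt1b have no entry there and were not searched. With the motif AGGTCANAGGTCA on either strand, 0 of 28 held it without a mismatch, 1 with at most 1 mismatch and 3 with at most 2. These are shares of 0%, 3.57% and about 11% of the members, against 0.0407%, 0.566% and 3.72% of the 27025 promoters in the table. The members were Acot12 (1 mismatch, TGACCTCTCACCT on the gene's strand, 110 bases before the start), Etfa (2 mismatches, TTACCTTTGCCCT, 77 bases before) and Acot4 (2 mismatches, 13 bases before). The single copy AGGTCA, which overlaps the repeat, was in 5 of 28 windows (17.9%) against 15.8% of the table.

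Cyp4a14 and Cyp4a10 code for omega-hydroxylases of fatty acids, and Cyp4a14 had the largest rise of the 33 members. Cyp4a14 levels in wild type kidney were -0.21, 2.89, 3.58 and 3.89 after saline, 1.36, 2.13, 2.29 and 2.68 at 24 h, 3.02, 3.41, 4.54 and 4.66 at 48 h, and 5.55, 6.10, 6.45 and 6.57 at 72 h. On miR-155-/- arrays Cyp4a14 read 1.33, 2.05, 2.93 and 2.97 after saline, 1.58, 1.70, 3.06 and 3.66 at 24 h, -0.03, 2.02, 2.82 and 3.52 at 48 h, and 5.18, 5.88, 5.93 and 6.16 at 72 h. All 72 h arrays of both genotypes lay above all saline and 24 h arrays. The saline groups were wide, with wild type replicate 1 at -0.21. Cyp4a14 rose at 72 h by 3.63 ± 0.69 (adjusted p = 0.00023) in wild type, a 12.4-fold difference, or by 2.71 (adjusted p = 0.0015) without that saline array, and by 3.47 ± 0.69 (adjusted p = 0.00025) in miR-155-/-. At 48 h it was at 1.37 ± 0.69 (adjusted p = 0.16) in wild type and -0.24 ± 0.69 (adjusted p = 0.8) in miR-155-/- kidney, with a difference between the responses of -1.61 ± 0.98 (adjusted p = 0.66), or -0.91 without miR-155-/- 48 h replicate 3.

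Cyp4a10 followed the same course with a smaller span. It read 4.26, 4.69, 5.16 and 5.35 after saline, 4.49, 4.96, 5.09 and 5.23 at 24 h, 5.02, 5.41, 5.97 and 6.05 at 48 h, and 6.38, 6.50, 6.72 and 7.0 at 72 h in wild type. Its miR-155-/- values were 4.35, 4.74, 5.01 and 5.37 after saline, 4.05, 4.68, 5.22 and 5.59 at 24 h, 3.56, 4.51, 4.95 and 5.24 at 48 h, and 5.88, 6.25, 6.39 and 6.46 at 72 h. At 72 h all arrays lay above saline in both genotypes. Cyp4a10 rose at 72 h by 1.78 ± 0.32 (adjusted p = 0.00012) and 1.38 ± 0.32 (adjusted p = 0.0013). At 48 h its differences were 0.75 ± 0.32 (adjusted p = 0.094) in wild type and -0.30 ± 0.32 (adjusted p = 0.47) in miR-155-/- kidney, and these responses differed by -1.05 ± 0.46 (adjusted p = 0.66). Close paralogs of Cyp4a10 exist in the mouse (Cyp4a31 and Cyp4a32, which rose at 72 h in wild type by 1.70 and 1.98), and whether their transcripts bind its probe was not tested.

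Pdk4, the kinase that shuts pyruvate dehydrogenase and so spares glucose carbon while fat is burned, rose at every time. Pdk4 levels in wild type kidney were -0.35, -0.10, 0.05 and 0.34 after saline, 2.06, 2.45, 3.01 and 3.02 at 24 h, 1.13, 1.46, 2.10 and 2.48 at 48 h, and 1.78, 2.36, 3.02 and 3.22 at 72 h. The miR-155-/- values of Pdk4 were 0.34, 0.52 and 0.62 after saline, 2.19, 2.48, 3.63 and 3.84 at 24 h, 1.63, 1.76, 1.85 and 4.46 at 48 h, and 2.73, 2.89, 3.11 and 3.32 at 72 h. A flagged spot was left out after saline. All treated arrays lay above all saline arrays of their genotype. A far value, that of miR-155-/- 48 h replicate 3, lay above its group. The differences were 2.65 ± 0.46, 1.80 ± 0.46 and 2.61 ± 0.46 in wild type (adjusted p of 4.7e-05, 0.0046 and 9.2e-05), a 6.28-fold rise at 24 h. In the mutants they were 2.54 ± 0.49, 1.93 ± 0.49 and 2.52 ± 0.49 (adjusted p of 0.00014, 0.0026 and 0.00022). Without replicate 3 the miR-155-/- difference at 48 h was 1.25 (adjusted p = 0.013).

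**Figure D4:**
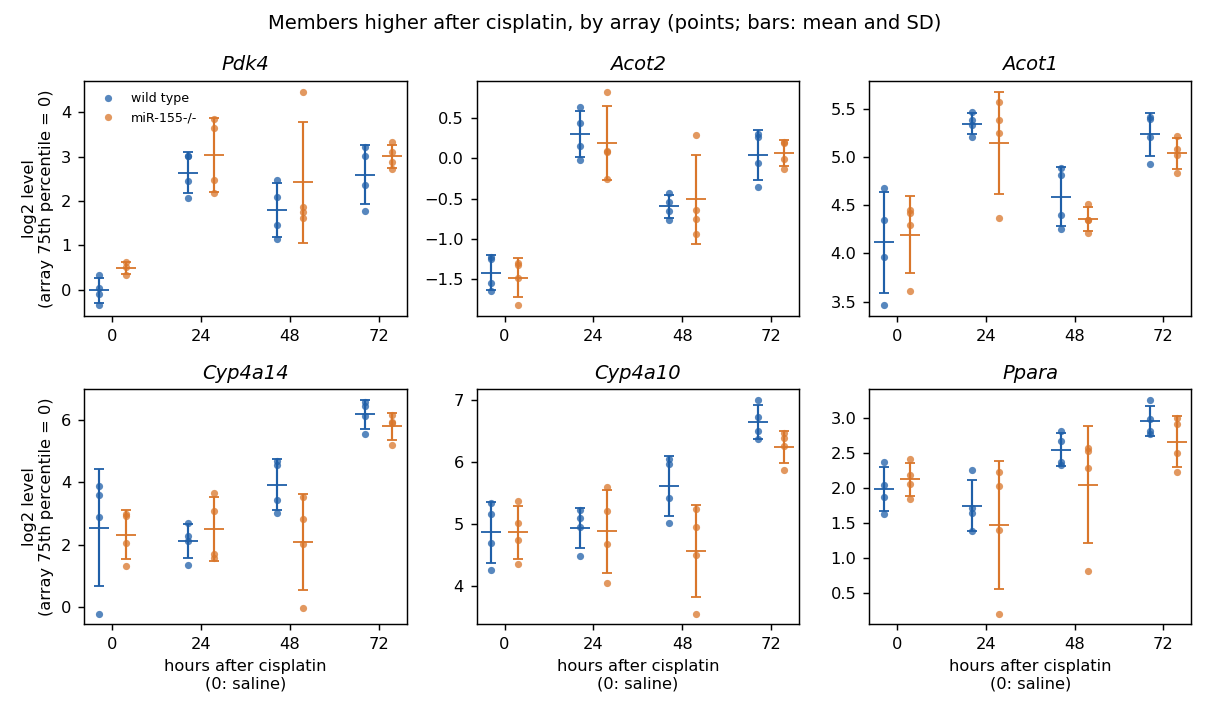
Log2 level (array 75th percentile at 0) of Pdk4, Acot2, Acot1, Cyp4a14, Cyp4a10 and Ppara by array, against hours after cisplatin (0 is saline), with wild type in blue and miR-155-/- in orange; bars show the mean and SD. Pdk4 and Acot2 are above saline from 24 h on, whereas all Cyp4a14 and Cyp4a10 values at 72 h lie above the saline values in both genotypes.

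Mitochondrial and peroxisomal steps were set side by side, with 17 genes (shuttle, dehydrogenases, later steps, auxiliary enzymes and electron transfer) and 5 genes. In wild type kidney 0 of 17 mitochondrial genes rose and 9 fell at 24 h, 2 rose and 7 fell at 48 h, and 6 rose and 3 fell at 72 h. Of the 5 peroxisomal genes 0 rose and 2 fell at 24 h, 1 rose and 1 fell at 48 h, and 2 rose and 0 fell at 72 h. Over all genes tested, 21.0%, 12.2% and 12.5% rose and 17.6%, 11.6% and 12.8% fell at these times, so that the 2 mitochondrial rises at 48 h are near that share. The median differences at 72 h were 0.12 and 0.56. The mitochondrial counts in miR-155-/- kidney were 0 and 7, 1 and 8, and 4 and 4. The peroxisomal counts there were 1 and 2, 1 and 3, and 2 and 1, and the medians at 72 h were -0.07 and -0.02. Of all genes 26.6%, 22.7% and 17.7% rose and 22.5%, 21.1% and 17.5% fell there, and the mitochondrial counts at 72 h are near these shares.

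Within each array the mean level of the peroxisomal genes, taken relative to wild type saline, was compared with that of the mitochondrial genes. This gap lay between -0.05 and 0.05 on the wild type saline arrays, between 0.00 and 0.14 at 24 h, between 0.00 and 0.23 at 48 h and between 0.25 and 0.44 at 72 h. On miR-155-/- arrays it lay between 0.01 and 0.13 after saline, -0.26 and 0.17 at 24 h, -0.43 and 0.02 at 48 h, and 0.19 and 0.34 at 72 h. The gap was thus wider on all 8 arrays at 72 h than on any saline array of their genotype, and as a difference within an array it is not moved by a constant scaling of that array. It is a description, with no test. Of its 5 peroxisomal genes Decr2 and Eci2 rose against saline at 72 h in both genotypes, and Acox2, Ehhadh and Acaa1b were not called higher. No such gap was seen at 72 h in group means of 17 other peroxisomal and 18 other mitochondrial fatty acid genes, counted further below. These were 0.005 and -0.045 in wild type and -0.278 and -0.295 in miR-155-/-. At 24 h they were -0.381 and -0.656 in wild type, and -0.383 and -0.655 in miR-155-/-.

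Subunits of the respiratory chain and ATP synthase, a mitochondrial list outside fatty acid oxidation, are given beside them as a description. In wild type kidney 15 of 18 fell at 24 h, 9 at 48 h and 3 at 72 h, and in miR-155-/- 10, 11 and 14 of 18, with 0 that rose at any time. Of all genes tested 17.6%, 11.6% and 12.8% fell at these times in wild type, and 22.5%, 21.1% and 17.5% in miR-155-/-. The 3 falls at 72 h in wild type are near that share. Median differences of the subunits at 24, 48 and 72 h were -0.37, -0.28 and -0.12 in wild type and -0.27, -0.30 and -0.41 in miR-155-/- kidney. For the mitochondrial fatty acid genes the medians were -0.30, -0.09 and 0.12, and -0.18, -0.30 and -0.07.

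**Figure D5:**
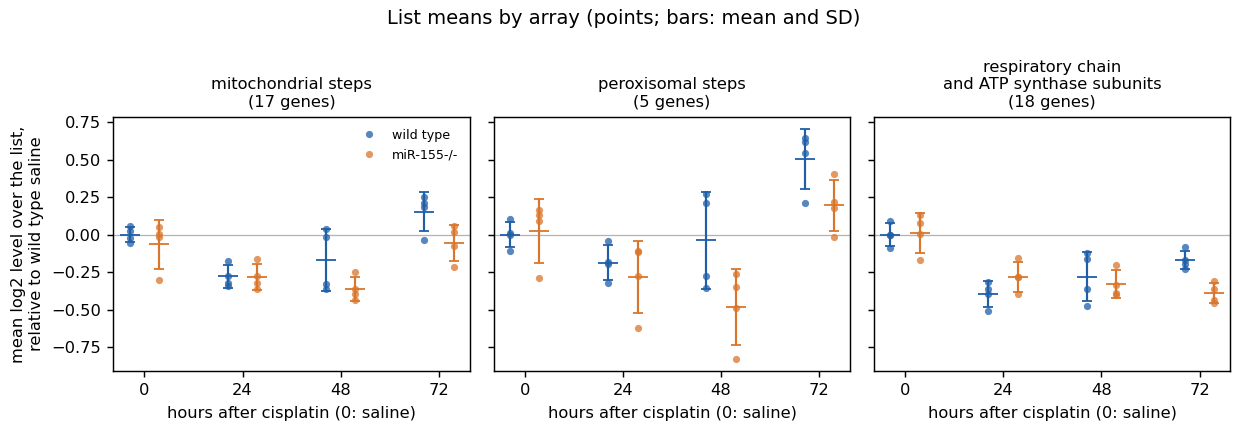
Mean log2 level per array, relative to the wild type saline mean of each gene, of 17 mitochondrial genes, 5 peroxisomal genes and 18 respiratory chain and ATP synthase subunits, against hours after cisplatin (0 is saline), with wild type in blue and miR-155-/- in orange; bars show the mean and SD of 4 arrays. In wild type the peroxisomal mean goes from -0.19 at 24 h to 0.50 at 72 h and the mitochondrial mean from -0.28 to 0.15, while the respiratory chain mean is -0.39 and -0.17.

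The change between 24 and 72 h was tested directly. In wild type kidney 21 of 33 members rose from 24 to 72 h (63.6%, against 11.9% of all genes) and 0 fell (14.7% of all genes; 0 also at an unadjusted p under 0.05 in limma, and 1 in a fit of the compared groups alone), with a median difference of 0.49 beside -0.03 over all genes. The 21 comprised 11 of 17 mitochondrial and 4 of 5 peroxisomal genes. In miR-155-/- kidney 13 rose (39.4%, against 13.6% of all genes) and 1, Acot4, fell (18.3% of all genes). The largest wild type rises, given with the miR-155-/- values, were those of Cyp4a14 (4.06 ± 0.69, adjusted p = 6.3e-05 and 3.29 ± 0.69, adjusted p = 0.00065), Cyp4a10 (1.71 ± 0.32 and 1.36 ± 0.32), Acaa2 (1.29 ± 0.15 and 0.64 ± 0.15), Ppara and Decr2 (1.05 ± 0.21 and 1.13 ± 0.21). Pdk4 and Acot2 were level, at -0.04 ± 0.46 and -0.26 ± 0.22 in wild type. With arrays scaled to their median in place of the 75th percentile, 31.3% of the calls over all genes in this miR-155-/- comparison were higher at 72 h, beside 42.7% in the fit given, and 7 members rose.

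No member was called between the genotypes by limma. At 0, 24, 48 and 72 h 0 of 33 members differed between miR-155-/- and wild type kidney, where 0.114%, 0.0800%, 0.101% and 0.720% of all genes did. At an unadjusted p under 0.05 there were 0, 0, 15 and 7 members, beside 3.32%, 9.31%, 15.2% and 10.9% of all genes in either direction. All 15 and all 7 were lower in miR-155-/- kidney, and the median difference over the members was -0.02, -0.04, -0.23 and -0.21 at the 4 times, beside 0.00, -0.03, -0.03 and -0.04 over all genes. The difference between the genotypes' responses was called for 0 of 33 members at 24, 48 and 72 h, where 0%, 0% and 0.211% of all genes were called, and 0, 4 and 2 members had an unadjusted p under 0.05. Without miR-155-/- 48 h replicate 3 the members with an unadjusted p under 0.05 at 48 h numbered 6 for the genotypes (3.15% of all genes) and 0 for the responses. At 48 h the largest genotype differences were those of Cyp4a14 (-1.83 ± 0.69, adjusted p = 0.31), Cyp4a10 (-1.05 ± 0.32, adjusted p = 0.29), Pdk4 (0.63 ± 0.46, adjusted p = 0.46) and Acaa1b (-0.59 ± 0.22, adjusted p = 0.31). Without that array they were -1.13, -0.71, -0.05 and -0.33. At 72 h Acot4 differed by -0.39 ± 0.13 (adjusted p = 0.19), and its responses differed by -0.53 ± 0.19 (adjusted p = 0.36).

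These counts of 0 did not hold under every alternative. With array weights from limma 6 of 33 members were called lower in miR-155-/- kidney at 72 h. Of all 23743 genes 1795 were called lower there, and 14.2% either way. The 6 were Acaa1b (-0.50, adjusted p = 0.019), Acaa2 (-0.39, adjusted p = 0.049), Acot4 (-0.41, adjusted p = 0.0037), Acox2 (-0.42, adjusted p = 0.032), Etfa (-0.36, adjusted p = 0.012) and Etfb (-0.32, adjusted p = 0.023). In a fit of the compared groups alone Acaa1b (-0.44, adjusted p = 0.048) and Acot4 (-0.39, adjusted p = 0.043) were called lower. Of all 23743 genes 321 were called lower in that fit, and 3.59% either way. Without the 2 arrays that stood apart Acot4 alone was called (-0.39, adjusted p = 0.043), beside 484 of 23952 genes called lower and 4.51% either way. The response of Acot4 at 72 h was called with array weights (-0.55, adjusted p = 0.018) and in the fit of the compared groups (-0.53, adjusted p = 0.049), beside 4.72% and 2.83% of all genes called either way.

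Further genes of the same routes were taken from lists chosen for their function, also with earlier results of these data known. Their counts stand against 21.0% of all genes that rose and 17.6% that fell in wild type at 24 h, and 12.5% and 12.8% at 72 h. In miR-155-/- kidney these shares were 26.6% and 22.5%, and 17.7% and 17.5%. Of 26 other PPAR alpha target genes, 6 rose and 11 fell in wild type at 24 h, and 15 rose and 6 fell at 72 h, with medians of -0.23 and 0.89. The 6 rises at 24 h are near the share of all genes. Creb3l3, a liver-enriched transcription factor of fasting, rose at 24 h by 3.97 ± 0.43 (adjusted p = 4e-08), and Plin2, a coat protein of lipid droplets, by 3.22 ± 0.38 (adjusted p = 1.2e-07). Cd36, a fatty acid transporter, fell at 24 h, with a difference of -1.41 ± 0.24 (adjusted p = 4e-05), and Me1, the malic enzyme, fell, with a difference of -0.87 ± 0.11 (adjusted p = 5.4e-07). At 72 h Angptl4, an inhibitor of lipoprotein lipase, had risen by 1.85 ± 0.26 (adjusted p = 4.4e-06), and Aldh3a2, a fatty aldehyde dehydrogenase, was lower, with a difference of -0.87 ± 0.12 (adjusted p = 5.1e-06). From 24 to 72 h 14 of these genes rose and 0 fell in wild type, among them Slc27a1 (1.02 ± 0.14), Ucp3 (1.71 ± 0.24), Plin5 (1.99 ± 0.28) and G0s2 (1.68 ± 0.24). The miR-155-/- counts were 4 and 12 at 24 h, and 13 and 6 at 72 h.

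Of 17 other peroxisomal fatty acid genes, 0 rose and 9 fell in wild type at 24 h, and 4 rose and 3 fell at 72 h. In the mutants 1 rose and 9 fell, and 3 rose and 6 fell. Amacr, a racemase for branched chains, fell, with a difference of -1.47 ± 0.15 (adjusted p = 1.2e-08) at 24 h and -1.93 ± 0.15 (adjusted p = 1.5e-10) at 72 h. Hsd17b4, the other bifunctional enzyme of the peroxisome, and Abcd3, an importer of acyl chains, rose from 24 to 72 h by 0.91 ± 0.12 and 0.89 ± 0.11. Of 18 other mitochondrial genes, 1 rose and 11 fell at 24 h, and 2 rose and 4 fell at 72 h. In the mutants 1 rose and 13 fell, and 2 rose and 11 fell. Acat1 fell, with a difference of -1.23 ± 0.16 (adjusted p = 6.6e-07) and Acadsb fell, with a difference of -1.09 ± 0.19 (adjusted p = 3.8e-05) at 24 h.

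Of 17 other transcriptional regulators, 2 rose and 6 fell at 24 h in wild type, and 2 rose and 4 fell at 72 h. The 2 rises at 72 h are near the share of all genes. Ppard, the delta form of the receptor, fell, with a difference of -0.69 ± 0.12 (adjusted p = 7.6e-05) and -0.84 ± 0.12 (adjusted p = 8.1e-06), and Pparg, the gamma form, fell as well, with a difference of -0.71 ± 0.16 (adjusted p = 0.00083) and -0.54 ± 0.16 (adjusted p = 0.014). Sirt3, a mitochondrial deacetylase, fell at 24 h, with a difference of -0.82 ± 0.12 (adjusted p = 2.3e-06) and rose from 24 to 72 h by 0.62 ± 0.12 (adjusted p = 0.00016), and Ncor1, a corepressor, fell at 24 h, with a difference of -0.74 ± 0.16 (adjusted p = 0.00065). The miR-155-/- counts were 2 and 10 at 24 h, and 0 and 6 at 72 h.

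Markers of other parts of the kidney were read on the same arrays. Over all genes tested 17.6%, 11.6% and 12.8% fell at 24, 48 and 72 h in wild type. In miR-155-/- kidney these shares were 22.5%, 21.1% and 17.5%. Of the markers of the early proximal tubule, in wild type 10 of 12 fell at 24 h, 5 at 48 h and 6 at 72 h, and in miR-155-/- 9, 9 and 8, with 0 that rose. Their mean level relative to wild type saline lay between -0.24 and 0.27 on saline arrays, -1.87 and -0.91 at 24 h and -1.49 and -0.56 at 72 h. Of 10 markers of the straight segment 8, 6 and 5 fell in wild type and 9, 10 and 8 in miR-155-/- kidney, with mean levels between -0.31 and 0.18 on saline arrays and between -1.77 and -0.69 on treated arrays. Their share in the fall of Acadm, Acads, Etfa and the other members was not tested. At 72 h the mean levels of both lists lay below saline in both genotypes, with 6 of 12 and 5 of 10 markers called lower in wild type. What this means for the rises of members at 72 h was not tested.

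Further cell types were read in the same way, and the shares of all genes that fell are those given above. Of all genes 12.5% rose at 72 h in wild type and 17.7% in miR-155-/-. Small counts on lists this short are not read as a change in a cell type. Of 14 markers of the thick limb, distal tubule and collecting duct 10 fell at 24 h and 5 at 72 h in wild type, and 9 and 7 in miR-155-/-. Of 8 adipocyte markers 0 were called against saline at any time, while their mean level ranged from -2.44 to 3.12 between arrays. All 6 red cell genes fell at 72 h in both genotypes. Of 11 macrophage markers 8 fell at 72 h in wild type and 2 fell and 1 rose in miR-155-/- kidney, and of 7 neutrophil markers 0 were called in wild type and 2 rose in miR-155-/- at that time. Of 8 endothelial markers 2 and 3 fell, and of 5 muscle markers 1 and 3 fell, in wild type and miR-155-/- at 72 h. Their part in the results on the members was not tested.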

How the data were processed

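Single-colour Agilent mouse arrays were read from the authors' deposited scanner files. Per the file headers, the intensities were made by Feature Extraction 10.7.3.1 (protocol GE1_107_Sep09), whose processed signal is already background-corrected. The authors' deposited value table held the same signals with 1 factor per array, and served as an alternative. Per the labels, each array is 1 animal. Flagged outlier spots were left out (970 missing values after averaging spots by probe), processed intensities were put on the log2 scale and each array's 75th percentile was subtracted. Probes were named through RefSeq accessions (69.1% matched 1 symbol), the brightest probe stood for a gene, and it was kept where every array of 1 or more groups had it well above background and each group had at least 3 values. The 8 groups were fitted together with limma 3.58.1 in R 4.3.3 (eBayes with trend, two-sided, Benjamini-Hochberg within each comparison, 24 residual degrees of freedom), after a test on simulated data. In that simulation, with 200 changed genes, 63.0% of changes of 1 log2 unit and 21.0% of changes of 0.5 were recovered. Of its calls 8.70% were false. A gene that was not called may thus still have changed by such an amount. The number of arrays limits the precision. Every member is reported. Array values are given for the 4 largest called rises and falls in wild type at 24 and at 72 h, for Ppara, Ppargc1a and Decr1, and the 4 smallest adjusted p-values chose the examples of other lists. Members and lists were chosen with earlier results of these data known. Normexp used the median signal, as the scanner files here hold no mean signal; this was decided after seeing the files. Array weights, other scalings, filters and blocks were tried as well. Some examples that this rule would name are not reported here.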

Additional observations from a re-analysis of the deposited data

Results flagged for a closer look

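In 13 of 270 sets of 4 arrays (4.81%) 1 array lay far from the other 3 by Dixon's criterion, which chance alone meets in about 1 set in 20. Among them 4 came from miR-155-/- 48 h replicate 3, the array that stood apart over all genes. On it Pdk4 read 4.46, above the rest of its group, while Acox2 read 2.99, Ppara 0.81 and the dimmer Decr1 probe -1.82, all below the rest. miR-155-/- 24 h replicate 3 held the high value of Acadm (6.24) and the low value of Decr2 (-0.23). In wild type the far values were Acox2 at 4.26 (24 h replicate 3), Slc25a20 at 0.60 (24 h replicate 1), Etfdh at 4.13 (saline replicate 1) and Hadh at 4.30 (saline replicate 3). In miR-155-/- kidney they were Decr1 on the brighter probe at 4.62 (saline replicate 3), Etfa at 4.59 (48 h replicate 2) and Hadha at 0.10 (72 h replicate 1).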

How the results depend on the processing

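Of 139 called member differences 91 kept direction and call under every alternative tried, and 37 lost the call without at least 1 array. The sign turned in 1 case, Decr1 at 48 h in wild type, at -0.10 as the mean over both probes. Calls were lost most often with arrays scaled to their median (30) or corrected by normexp (27), followed by the fit of the compared groups alone (15), against 10 with the slide as a block, 7 with quantile normalization and 0 in the authors' deposited table. Normexp moved the median of all genes by over 0.1 in most comparisons, though not between the genotypes at 0 h, for example from -0.05 to 0.31 at 48 h in miR-155-/- and from 0.07 to 0.26 at 24 h in wild type. No slide held wild type saline and 72 h arrays, and no value within a slide can be given there.

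The counts that moved most were those of rises. In wild type 3 members rose at 48 h with normexp or median scaling and 11 with array weights (3 to 6 without 1 array), and 5 rose at 24 h with array weights and 7 in a fit of the compared groups alone. In miR-155-/- 7 rose at 24 h without the 2 arrays that stood apart. At 48 h in miR-155-/- 2 rose with normexp or median scaling and 1 with the compared groups alone (2 to 4 without 1 array). From 24 to 72 h in miR-155-/- 7 rose with normexp or median scaling and 8 with the compared groups alone. At 72 h in wild type 5 members fell with quantile normalization, array weights or the compared groups alone, and 1 fell from 24 to 72 h with the compared groups alone. Members that differed by genotype at 72 h numbered 6 with array weights, 2 in the fit of the compared groups and 1 without 2 arrays. The difference of responses at 72 h had 1 call under each of the former fits. The causes were not tested.

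With a replicate block 16 members rose at 72 h and 12 fell at 24 h in wild type, as without it, and 2 calls were lost (Etfa in wild type from 24 to 72 h, Etfb in miR-155-/- at 48 h). Deviations of same-numbered arrays correlated between -0.55 and 0.52 and in no comparison were all above 0.1. Such correlations cannot settle whether same-numbered arrays were paired in the experiment.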
